A study of Homo sapiens with 2 samples.

Results

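The 50 genes described here encode proteins that copy DNA in S phase or that govern entry into it, from the origin recognition complex to the polymerases, nucleotide synthesis, cyclin E and the E2F factors. They were chosen by symbol, with earlier results of these data known, and each symbol matched 1 of the 60527 rows of the deposited table. Total RNA was sequenced from 2 cultures that the labels call SK-MEL-2, a line derived from human melanoma, with 1 library per group. One culture had been kept for 48 h with DMSO, the solvent, and the other for 48 h with JNJ-7706621 at 1.75 µM. JNJ-7706621 is a small molecule known to inhibit cyclin-dependent kinases, which drive the cell cycle, and Aurora kinases, which act in mitosis. Levels are FPKM, reads per 1000 bases of exon and 1000000 reads of the library. The exon length is close to that of all annotated exons of a gene merged, which can exceed the mRNA made. Levels of different genes can therefore be compared only roughly, while the ratio of a gene between libraries does not depend on its length. The deposited table also has 2 columns that carry the same group names with the number 2, which match no sample label used here and were not used. With 1 library used per group there is no replicate check and no p-value, and the intervals in parentheses are 95% counting intervals that cover counting error only.

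Replication starts with licensing, when the origin recognition complex, CDC6 and CDT1 load the MCM2 to MCM7 helicase ring onto DNA before S phase. The kinase CDC7 with its partner DBF4, together with cyclin-dependent kinases, then turns the ring into the active helicase by adding CDC45 and the GINS complex, and polymerases copy the opened strands behind it. Most of these genes are known targets of the E2F factors, which are held in check by the retinoblastoma protein until cyclin-dependent kinases phosphorylate it at the passage from G1 to S.

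Almost all of these mRNAs stood higher in the library from the JNJ-7706621 culture, by a moderate factor. The median FPKM ratio was 1.62 over the 49 members whose mean FPKM reached 1, and it spanned 0.899 for POLA1 to 2.8 for MCM10. On the log2(FPKM + 1) scale, which understates differences of low genes, the median difference was 0.64, against -0.0032 over all 13241 genes that passed the same filter. A gene was called 2-fold higher at a log2 difference of at least 1, and 7 of the 49 met this (ORC6, MCM2, GINS2, GINS4, MCM10, DSCC1 and CCNE1), against 2.39% of all genes. At 1.5-fold 28 of the 49 were higher, against 8.53% of all genes, and 48 lay above 0, against 49.6%. None was called 2-fold lower, against 1.36% of all genes, or 1.5-fold lower, against 6.77%, and 1 lay below 0, against 50.4%. Among protein-coding genes alone, 1.79% were 2-fold higher, 7.14% were 1.5-fold higher and 50.1% lay above 0.

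Counting error was small beside these differences. The interval of the ratio lay above 1 for 44 of the 49, against 32.8% of all genes and 36.0% of protein-coding genes. It lay below 1 for 0 members, against 33.2% of all genes, and it spanned 1 for the other 5 (CDC7, WDHD1, POLA1, POLD3 and CCNE2). POLA2, at 0.622 FPKM in the DMSO library and 0.732 FPKM in the JNJ-7706621 library, was the 1 member under the filter. Reads of the 50 genes made up 0.246% of the DMSO library and 0.38% of the JNJ-7706621 library. Their number per gene and library ranged from 81 for POLA2 to 12565 for PCNA. In RNA from whole cultures, a larger share of cells in S phase and more mRNA per cell cannot be told apart.

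**Figure D1:**
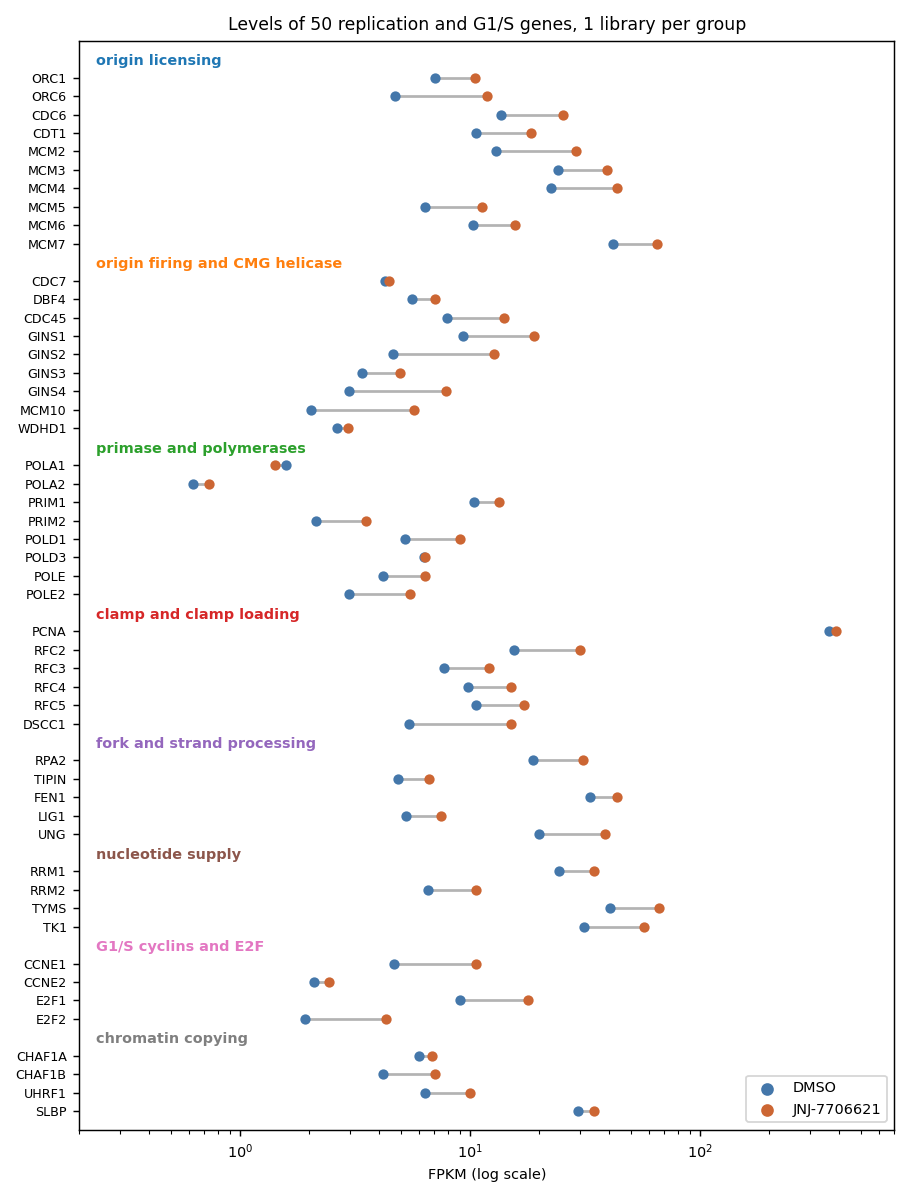
Levels of the 50 genes in FPKM on a log axis, grouped by step, with 1 point for the DMSO library and 1 for the JNJ-7706621 library. The JNJ-7706621 point lies to the right for every gene but POLA1, and PCNA stands far above all other genes at 362 and 392 FPKM.

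**Figure D2:**
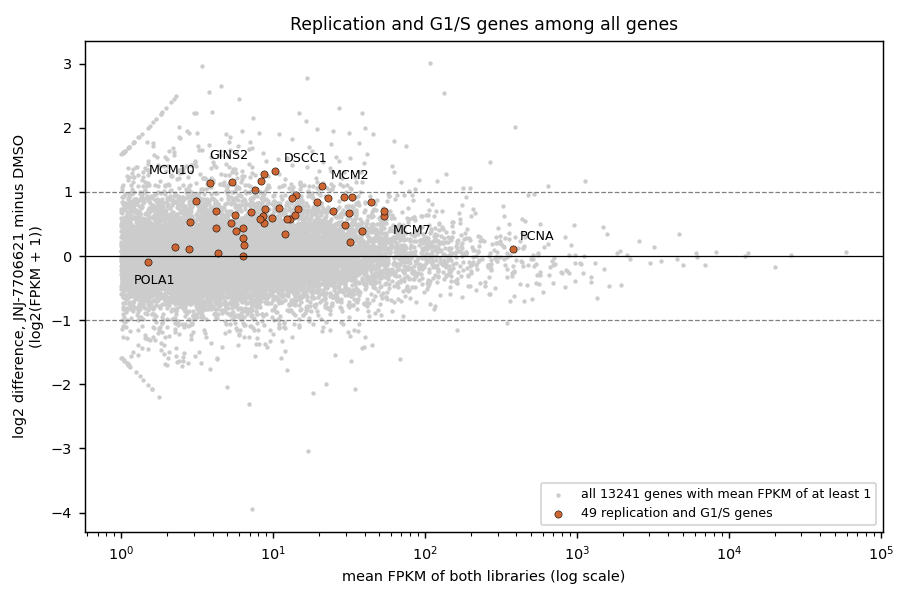
Log2 difference (JNJ-7706621 minus DMSO, on log2(FPKM + 1)) against mean FPKM on a log axis, for all 13241 genes in grey and for the 49 members over the filter in orange. The dashed lines mark 2-fold, and the orange points lie in the upper part of the grey cloud at nearly every level.

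The promoters were searched because these mRNAs moved together and many are known E2F targets. Promoter windows, from 250 bases before to 50 after the RefSeq start on GRCh38.p14, were at hand for 43 of the 50 genes, and not for MCM4, MCM5, GINS4, POLD3, DSCC1, RPA2 and CCNE2. The search was for the E2F letters TTTCCCGC, TTTGGCGC, TTTCGCGC and TTTGCCGC, on both strands, where overlapping matches count separately. They were found in 19 of the 43 windows (44.2%), against 5.36% of the 8561 windows of genes over the same filter and 3.27% of all 27305 windows. The member share does not depend on the libraries. It describes a list drawn by role, not a response to the compound. Other promoter letters differed less from those backgrounds. CCAAT, the letters bound by the factor NF-Y, were in 48.8% of the member windows, against 36.8% and 35.6%. GGGCGG, the letters of the GC box, which can overlap the E2F letters, were in 74.4%, against 69.9% and 43.8%. TTTGAA, the letters of the CHR element of mitotic genes, were in 2 of the 43 (4.65%), against 9.87% and 15.6%.

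The bases just upstream of the start are shown for 8 members, to let the E2F letters be seen beside promoters that lack them. E2F1, MCM6, TIPIN, GINS2 and POLA1 hold E2F letters there, and ORC6, MCM10 and PCNA do not. The windows are chr20:33686386-33686635 on the minus strand for E2F1, chr2:135876444-135876693 on the minus strand for MCM6, chr15:66356686-66356935 on the minus strand for TIPIN, chr16:85688955-85689204 on the minus strand for GINS2, chrX:24693668-24693917 on the plus strand for POLA1, chr16:46689409-46689658 on the plus strand for ORC6, chr10:13161308-13161557 on the plus strand for MCM10 and chr20:5119959-5120208 on the minus strand for PCNA. Capitals mark the E2F letters and CCAAT, either of which can appear as its reverse complement (CCAAT as ATTGG).
E2F1: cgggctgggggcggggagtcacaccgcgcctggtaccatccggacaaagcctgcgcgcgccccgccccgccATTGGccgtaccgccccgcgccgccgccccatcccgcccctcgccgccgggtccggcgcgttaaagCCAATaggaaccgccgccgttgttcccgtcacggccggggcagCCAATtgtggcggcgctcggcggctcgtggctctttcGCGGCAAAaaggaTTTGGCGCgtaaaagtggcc
MCM6: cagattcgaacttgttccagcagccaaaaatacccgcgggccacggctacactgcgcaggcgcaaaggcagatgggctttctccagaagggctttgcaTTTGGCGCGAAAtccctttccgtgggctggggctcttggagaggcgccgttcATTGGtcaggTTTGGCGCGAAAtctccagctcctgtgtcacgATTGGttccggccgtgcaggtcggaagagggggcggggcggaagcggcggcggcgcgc
TIPIN: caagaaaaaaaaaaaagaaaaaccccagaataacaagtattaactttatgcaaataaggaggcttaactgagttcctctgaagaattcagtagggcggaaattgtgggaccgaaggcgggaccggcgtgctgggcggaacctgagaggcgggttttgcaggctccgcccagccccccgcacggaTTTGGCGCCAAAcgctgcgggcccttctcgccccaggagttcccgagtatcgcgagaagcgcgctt
GINS2: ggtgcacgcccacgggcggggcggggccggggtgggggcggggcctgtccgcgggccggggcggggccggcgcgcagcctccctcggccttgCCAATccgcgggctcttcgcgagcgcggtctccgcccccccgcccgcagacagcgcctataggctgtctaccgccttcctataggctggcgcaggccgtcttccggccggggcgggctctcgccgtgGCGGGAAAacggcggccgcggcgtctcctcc
POLA1: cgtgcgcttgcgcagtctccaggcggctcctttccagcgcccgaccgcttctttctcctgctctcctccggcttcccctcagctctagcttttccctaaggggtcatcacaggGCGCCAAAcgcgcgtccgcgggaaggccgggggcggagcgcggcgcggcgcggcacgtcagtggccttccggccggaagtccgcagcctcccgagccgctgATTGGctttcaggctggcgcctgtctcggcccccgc
ORC6: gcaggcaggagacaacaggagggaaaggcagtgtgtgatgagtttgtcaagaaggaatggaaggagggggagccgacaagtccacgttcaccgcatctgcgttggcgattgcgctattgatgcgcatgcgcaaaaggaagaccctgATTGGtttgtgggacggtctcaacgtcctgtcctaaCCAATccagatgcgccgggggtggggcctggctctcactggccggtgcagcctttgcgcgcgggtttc
MCM10: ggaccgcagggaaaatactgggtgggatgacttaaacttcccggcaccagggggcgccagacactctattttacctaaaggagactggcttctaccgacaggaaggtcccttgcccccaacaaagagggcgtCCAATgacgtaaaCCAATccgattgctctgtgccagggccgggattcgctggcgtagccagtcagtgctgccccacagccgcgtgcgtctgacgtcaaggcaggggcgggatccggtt
PCNA: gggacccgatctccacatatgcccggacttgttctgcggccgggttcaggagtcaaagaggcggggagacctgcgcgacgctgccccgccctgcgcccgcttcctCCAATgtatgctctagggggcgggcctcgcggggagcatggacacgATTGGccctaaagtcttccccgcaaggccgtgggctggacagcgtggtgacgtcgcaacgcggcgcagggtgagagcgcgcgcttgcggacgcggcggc
In MCM6 the capitals TTTGGCGCGAAA appear at 2 places, each made of 2 overlapping E2F matches, and in TIPIN the palindrome TTTGGCGCCAAA is made the same way. ORC6 and MCM10, both called 2-fold higher, hold CCAAT but no E2F letters in their windows. POLA1, the 1 member with a lower value in the JNJ-7706621 library, holds E2F letters.

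Within the list, members with and without the letters had overlapping differences. The 18 members over the filter with E2F letters had a median log2 difference of 0.69 and a range of -0.09 to 1.29. The 24 without them had a median of 0.60 and a range of 0.05 to 1.18, so the ranges overlapped almost entirely. Of those with the letters 61.1% were 1.5-fold higher, and of those without 50%, a difference that was not tested. Among genes outside the list, 441 over the filter had E2F letters, with a median of 0.03, and 6.8% of them were 1.5-fold higher, close to the 6.76% of genes without the letters.

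The 10 licensing members were all higher. Each had a counting interval above 1, against 32.8% of all genes, and their ratios ran from 1.49 to 2.53. Of the 10, 2 were called 2-fold higher, ORC6 and MCM2, against 2.39% of all genes. ORC6, the smallest subunit of the origin recognition complex, went from 4.72 FPKM with DMSO to 11.9 with the compound, a ratio of 2.53 (2.27 to 2.82). ORC1, a subunit that binds ATP and recruits CDC6, stood at 7.02 and 10.5 FPKM, a ratio of 1.49 (1.33 to 1.67), the lowest of this step. The intervals of these subunits of 1 complex did not overlap. The other subunits, which are no members and are named here after their values were seen, did not stand as high. ORC2 and ORC3 had ratios of 0.903 (0.811 to 1.01) and 0.971 (0.858 to 1.1), and ORC4 and ORC5 of 1.13 (1.0 to 1.27) and 1.18 (1.08 to 1.3).

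CDC6 and CDT1 bring the helicase ring to the origin. CDC6 stood at 13.7 FPKM with DMSO and 25.4 with the compound, a ratio of 1.86 (1.75 to 1.97). CDT1 stood at 10.6 and 18.4 FPKM, a ratio of 1.73 (1.58 to 1.91). The intervals of these loaders overlapped.

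The 6 subunits of the MCM2 to MCM7 ring, which share 1 copy each in the hexamer, differed in FPKM by a factor of 6.57 in DMSO and 5.77 in JNJ-7706621, with MCM5 lowest and MCM7 highest in both. The exon length used was 7268 bases for MCM5 and 4386 for MCM7, and its part in this gap was not tested. MCM7 stood at 41.7 and 65.0 FPKM and MCM5 at 6.35 and 11.3 FPKM. MCM3 stood at 24.2 and 39.3 FPKM, and MCM6 at 10.3 and 15.7 FPKM. Each of the 6 was thus higher in JNJ-7706621 while the order of levels was kept except that MCM4 passed MCM3. MCM2 was the subunit with the largest ratio, at 13.0 and 28.8 FPKM, a ratio of 2.21 (2.08 to 2.36). MCM4 followed at 22.5 and 43.5 FPKM, a ratio of 1.93 (1.85 to 2.01), and the remaining 4 had ratios of 1.53 to 1.77. Genes on the opposite strand cover 23.6% of the exonic bases of MCM2, and their part in its value was not tested.

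Genes of origin firing and of the active helicase included helicase subunits with large ratios and a kinase with a ratio near 1. CDC7, the kinase that phosphorylates the MCM ring, stood at 4.27 FPKM with DMSO and 4.46 with the compound, a ratio of 1.04 (0.9 to 1.21). Its activating subunit DBF4 stood at 5.59 and 7.01 FPKM, a ratio of 1.25 (1.12 to 1.4). The helicase cofactor CDC45 stood at 7.93 and 14.0 FPKM, a ratio of 1.76 (1.59 to 1.96). The interval of CDC45 lies above those of the kinase and its partner.

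The 4 GINS subunits form 1 complex that binds CDC45 and the MCM ring. GINS2 stood at 4.64 FPKM with DMSO and 12.7 with the compound, a ratio of 2.75 (2.43 to 3.12). GINS4 stood at 2.98 and 7.83 FPKM, a ratio of 2.62 (2.33 to 2.96), and GINS1 at 9.34 and 19.0 FPKM, a ratio of 2.03 (1.88 to 2.21). GINS3 stood apart at 3.4 and 4.96 FPKM, with a ratio of 1.46 (1.28 to 1.66) whose interval lies below those of the other three. It was the second lowest subunit in DMSO and the lowest in JNJ-7706621. Other genes cover 23.6% of the exonic bases of GINS4 and 10.9% of that of GINS3, and their part was not tested.

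MCM10 and WDHD1 act at the new fork, MCM10 in starting the helicase and WDHD1 in tying polymerase alpha to it. MCM10 had the highest ratio of all 50 genes, though its interval overlaps those of DSCC1, GINS2, GINS4, ORC6, CCNE1 and E2F2, at 2.04 FPKM with DMSO and 5.71 with the compound, a ratio of 2.8 (2.42 to 3.24). WDHD1 stood at 2.64 and 2.94 FPKM, a ratio of 1.11 (0.968 to 1.28). The step as a whole had a median log2 difference of 0.75, with 3 of 9 called 2-fold higher, against 2.39% of all genes.

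**Figure D3:**
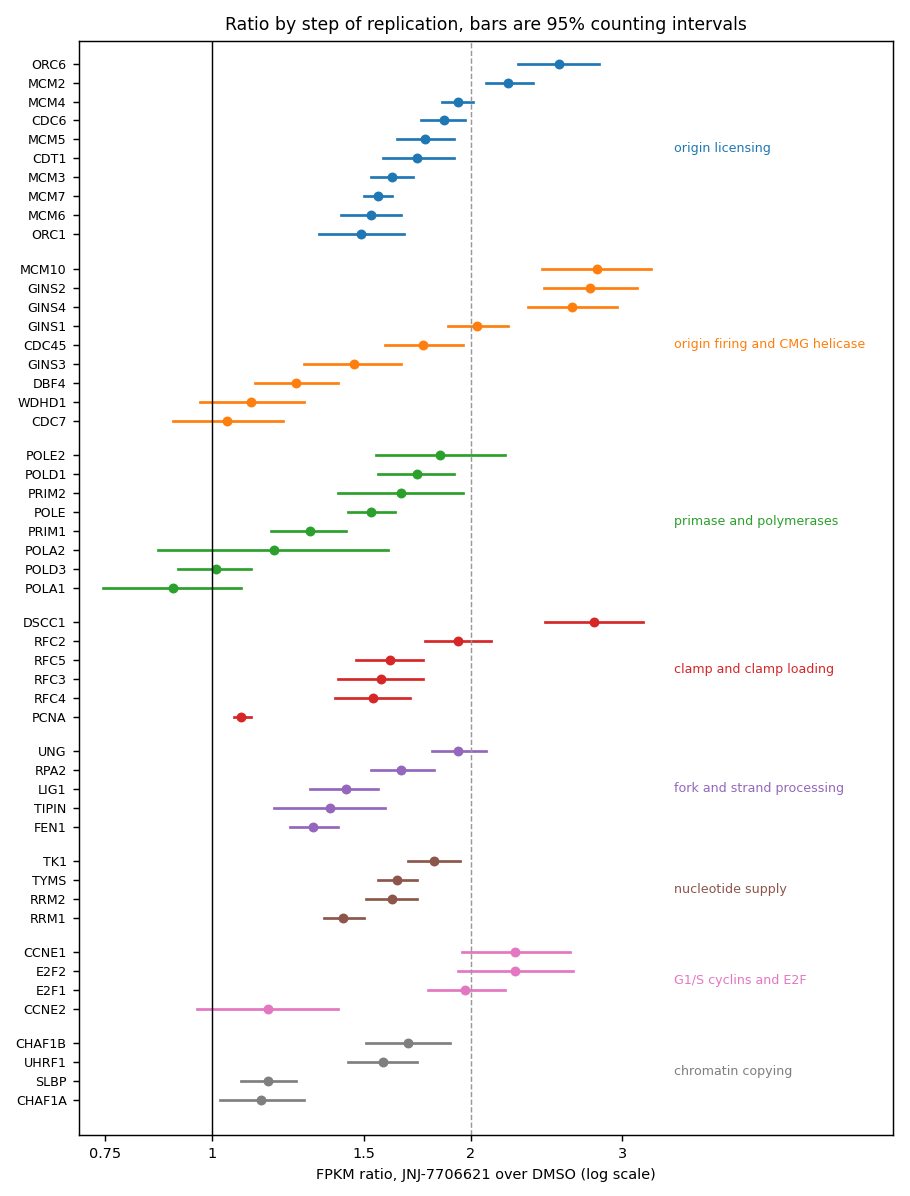
FPKM ratio of each of the 50 genes (JNJ-7706621 over DMSO, log axis) with its 95% counting interval, sorted within each step, with a solid line at 1 and a dashed line at 2. The 10 licensing members lie between 1.49 and 2.53, while the firing and polymerase members spread from about 1 upward, and POLA1 at 0.899 is the only point left of 1.

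Primase and polymerase genes included those that differed least. Polymerase alpha with primase makes the RNA-DNA primers, and its subunits had uneven FPKM, with a factor of 16.7 between the lowest and the highest in DMSO and 18.3 in JNJ-7706621. The catalytic subunit gene POLA1 stood at 1.58 FPKM with DMSO and 1.42 with the compound, a ratio of 0.899 (0.745 to 1.08), and POLA2 had a ratio of 1.18 (0.864 to 1.6). PRIM1, the catalytic primase subunit, stood at 10.4 and 13.4 FPKM, a ratio of 1.3 (1.17 to 1.43). PRIM2, the large primase subunit, stood at 2.13 and 3.54 FPKM, a ratio of 1.66 (1.4 to 1.96). The intervals of both primase genes lay above 1, and those of both polymerase alpha genes spanned 1. That of POLA1 lies below those of PRIM1 and PRIM2, but that of POLA2, from 81 and 93 reads, overlaps both. Other genes cover 35.1% of the exonic bases of POLA2 and 21.6% of that of PRIM1, and their part was not tested.

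The polymerases that extend the strands differed by subunit. POLE, the leading strand polymerase, stood at 4.18 and 6.4 FPKM, a ratio of 1.53 (1.44 to 1.63), and its second subunit POLE2 at 2.98 and 5.49 FPKM, a ratio of 1.84 (1.55 to 2.19). POLD1, the catalytic subunit of the lagging strand polymerase delta, stood at 5.24 and 9.03 FPKM, a ratio of 1.73 (1.56 to 1.91). POLD3, an accessory subunit of the same polymerase, stood at 6.32 and 6.36 FPKM, a ratio of 1.01 (0.911 to 1.11). The catalytic and accessory subunits of polymerase delta therefore had intervals that did not overlap. Of the 7 genes of this step over the filter, 0 were called 2-fold higher, which cannot be told from the 2.39% of all genes. The median log2 difference was 0.51.

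PCNA, the sliding clamp that holds polymerases on DNA, was by far the most abundant of the 50 mRNAs and one of the least different. It stood at 362 FPKM with DMSO and 392 with the compound, a ratio of 1.08 (1.06 to 1.11). The member with the next highest level, MCM7 in DMSO, lay at 41.7 FPKM. Without PCNA the reads of the other 49 genes went from 0.195% to 0.325% of the library, 1.67 times as high (1.65 to 1.69).

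The 5 clamp loader genes among the members, whose products put PCNA onto DNA, had larger ratios than the clamp. RFC2 went from 15.6 FPKM with DMSO to 30.2 with the compound, a ratio of 1.93 (1.77 to 2.11). RFC3, RFC4 and RFC5, the other small subunits, had ratios of 1.57 (1.4 to 1.76), 1.54 (1.39 to 1.7) and 1.61 (1.47 to 1.76). RFC1, the large subunit of the same loader, is no member and went the other way, at 4.35 and 3.61 FPKM, a ratio of 0.828 (0.739 to 0.928), and it too is named after its value was seen. The intervals of RFC3, RFC4 and RFC5 overlapped one another, and the levels of the 4 small subunits lay within a factor of 2.03 in DMSO and 2.5 in JNJ-7706621. DSCC1, a subunit of an alternative loader, stood at 5.42 and 15.1 FPKM, a ratio of 2.78 (2.44 to 3.17), next to that of MCM10 in the list.

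The 5 members that protect and join the new strands were all higher, with a median log2 difference of 0.44. UNG, the glycosylase that removes uracil from DNA, stood at 19.9 FPKM with DMSO and 38.5 with the compound, a ratio of 1.93 (1.8 to 2.08). RPA2, a subunit of the protein that coats single-stranded DNA, stood at 18.7 and 31.0 FPKM, a ratio of 1.66 (1.53 to 1.81). FEN1, which trims flaps of Okazaki fragments, stood at 33.3 and 43.7 FPKM, a ratio of 1.31 (1.23 to 1.4). LIG1, the ligase that seals those fragments, had a ratio of 1.43 (1.3 to 1.56). TIPIN, which stabilises forks with TIMELESS, had a ratio of 1.37 (1.18 to 1.59), and another gene covers 21.0% of its exonic bases.

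The 4 nucleotide supply members had ratios of 1.42 to 1.81. TK1, the thymidine kinase of dividing cells, stood at 31.4 FPKM with DMSO and 56.8 with the compound, a ratio of 1.81 (1.69 to 1.94). TYMS, the thymidylate synthase, stood at 40.6 and 66.6 FPKM, a ratio of 1.64 (1.56 to 1.73), and ENOSF1 and TYMSOS on the other strand cover 46.6% of its exonic bases. RRM2 and RRM1 encode the subunits of ribonucleotide reductase. RRM2, the subunit whose level limits the enzyme in cycling cells, stood at 6.56 and 10.6 FPKM, a ratio of 1.62 (1.51 to 1.73). RRM1 stood at 24.4 and 34.7 FPKM, a ratio of 1.42 (1.35 to 1.5), the lowest of the step. For RRM2 the exon length recovered was 9155 bases against 5323 annotated, so its level beside that of RRM1 is uncertain.

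The regulators of the G1/S passage had the highest median of the 8 steps, 0.89 on the log2 scale over 4 genes, with 1 exception among them. CCNE1, one of the cyclins that activate CDK2, stood at 4.69 FPKM with DMSO and 10.6 with the compound, a ratio of 2.25 (1.95 to 2.61). CCNE2, the other cyclin E, stood at 2.1 and 2.43 FPKM, a ratio of 1.16 (0.96 to 1.4). The paralogs thus had intervals that did not overlap, although other genes cover 37.1% of the exonic bases of CCNE2 and their part was not tested. E2F1, an activating E2F factor, stood at 9.03 and 17.8 FPKM, a ratio of 1.97 (1.78 to 2.19). E2F2, another activator, stood at 1.91 and 4.3 FPKM, a ratio of 2.25 (1.93 to 2.63), which at its low level falls short of the 2-fold call.

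Genes of chromatin copying had the lowest median, 0.40 over 4. CHAF1B and CHAF1A encode subunits of CAF-1, which places new histones behind the fork. CHAF1B stood at 4.18 FPKM with DMSO and 7.06 with the compound, a ratio of 1.69 (1.51 to 1.89), and CHAF1A at 5.99 and 6.85 FPKM, a ratio of 1.14 (1.02 to 1.28). UHRF1, which brings the maintenance methyltransferase to half-methylated sites, had a ratio of 1.58 (1.44 to 1.73). SLBP, which binds the stem-loop of histone mRNAs, stood at 29.6 and 34.5 FPKM, a ratio of 1.16 (1.08 to 1.25). The intervals of CHAF1B and UHRF1 lie above those of CHAF1A and SLBP.

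Lists of other genes of the same processes had lower medians than the 50 genes, and the differences between lists were not tested. Members and lists were both drawn with earlier results of these data known, so this contrast may depend on how they were drawn. Of 28 other replication factors over the filter, 19 lay above 0 and 9 below, beside 49.6% and 50.4% of all genes. Of the 28, 0 were called 2-fold higher or lower, near the 2.39% and 1.36% of all genes. Their median log2 difference was 0.26. RPA3, a further subunit of the single-strand binding protein, had a ratio of 1.58 (1.44 to 1.73), and TIMELESS, the partner of TIPIN, of 1.48 (1.4 to 1.57). TICRR, which is needed to fire origins, had a ratio of 1.55 (1.41 to 1.72) and the polymerase delta subunit POLD2 of 1.43 (1.36 to 1.51).

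Among 21 other nucleotide supply genes 17 lay above 0, beside 49.6% of all genes, with a median of 0.25. NME1, a nucleoside diphosphate kinase with exons shared by a readthrough gene, had a ratio of 1.78 (1.65 to 1.92), DTYMK, the thymidylate kinase, of 1.53 (1.41 to 1.67), and the purine synthesis gene GART of 1.49 (1.43 to 1.56). Of 13 other genes of chromatin copying, 8 lay above 0 and 5 below, beside 49.6% and 50.4% of all genes, with a median of 0.13. On the log2(FPKM + 1) scale 0 of the 13 were called 2-fold higher or lower, near the 2.39% and 1.36% of all genes. TONSL, which acts at damaged forks, had an FPKM ratio of 2.04 (1.82 to 2.29) but a log2 difference of 0.81 at its low level, the histone chaperones NASP and ASF1B of 1.55 (1.47 to 1.64) and 1.44 (1.29 to 1.6), and CASP8AP2, a factor of histone gene expression, of 0.575 (0.469 to 0.702).

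Other regulators of the G1/S passage went both ways, with 18 of 29 above 0 and 11 below, beside 49.6% and 50.4% of all genes. Their median was 0.19, and 3 of them had larger log2 differences than any of the 50. MYBL2, an E2F-driven transcription factor of S phase and mitosis, stood at 20.1 FPKM with DMSO and 62.6 with the compound, a ratio of 3.12 (2.93 to 3.32). CDC25A, the phosphatase that activates CDK2, stood at 1.76 and 6.37 FPKM, a ratio of 3.61 (3.04 to 4.3). CDKN1A, the inhibitor p21, had a ratio of 2.69 (2.56 to 2.82) and CDK2 itself of 2.33 (2.14 to 2.53), where other genes, PMEL among them, cover 16.8% of its exonic bases. CDKN1A was the 1 inhibitor called higher. Some other genes that restrain the passage were lower. CDKN2C had a ratio of 0.507 (0.441 to 0.581), CDKN2D of 0.501 (0.343 to 0.723), CDKN1B of 0.747 (0.696 to 0.801) and RBL2 of 0.695 (0.645 to 0.749). Others were higher, with ratios of 1.41 (1.18 to 1.68) for E2F7, 1.26 (1.15 to 1.37) for E2F5, 1.15 (1.07 to 1.24) for E2F4 and 1.2 (1.03 to 1.4) for FBXW7. Nor were all drivers higher, as CCND3 had a ratio of 0.682 (0.649 to 0.716) and CDK6 of 0.716 (0.666 to 0.769). All of these are named after their values were seen. CDKN2C and CDKN2D were the 2 genes of this list that were 1.5-fold lower, beside 6.77% of all genes. RB1, the retinoblastoma gene, stood at 6.73 and 5.8 FPKM, a ratio of 0.862 (0.786 to 0.945).

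Genes of G2/M and mitosis had a median of 0.35 over 46, with 37 above 0 and 9 below, beside 49.6% and 50.4% of all genes. Of the 46, 2 were called 2-fold higher, beside 2.39% of all genes. CCNB1, the mitotic cyclin, and AURKA, a mitotic kinase, had ratios of 2.09 (2.0 to 2.18) and 2.1 (1.97 to 2.24). CDK1 and UBE2C, which start and end mitosis, had ratios of 1.95 (1.85 to 2.06) and 1.94 (1.8 to 2.08), while the proliferation marker MKI67 had 0.631 (0.596 to 0.667). The difference between this list and the 50 genes was not tested.

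**Figure D4:**
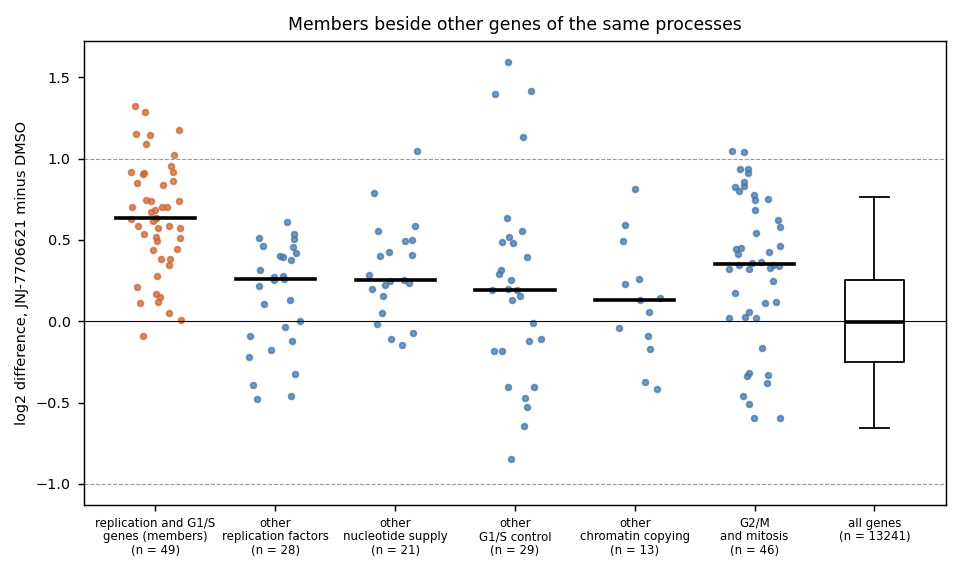
Log2 difference (JNJ-7706621 minus DMSO) of the 49 members over the filter and of 5 lists of other genes, 1 point per gene with a bar at the median, beside all genes as a box of the quartiles with whiskers at the 5th and 95th percentiles. The members have a median of 0.64 and the other lists medians of 0.13 to 0.35, and each of the other lists has points below 0.

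Several members share their promoter region with a gene on the other strand, which gives a comparison within the same stretch of DNA. By GENCODE release 29 on GRCh38, 12 members have a protein-coding gene over the filter that starts within 1000 bases upstream on the other strand. For GINS3, PCNA and TIPIN the RefSeq start lies farther than that from the neighbour, so 9 pairs remain. In 8 of these 9 the member had the larger log2 difference, with a median of 0.52 for the members and -0.06 for the neighbours, and on the log2(FPKM + 1) scale 0 of the 9 neighbours were 1.5-fold higher, a count to be read beside the 7.14% of protein-coding genes. Over all 12 pairs the member had the larger difference in 10. The RefSeq start of MCM4 and POLD3 was not checked.

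The pair of ORC6 and VPS35, an endosome sorting gene, lies at 46689643 to 46698394 on chromosome 16 for ORC6, with starts 125 bases apart. VPS35 stood at 14.5 FPKM with DMSO and 13.8 with the compound, a ratio of 0.954 (0.908 to 1.0), beside the 2.53 of ORC6. MCM4 lies at 47960185 to 47978160 on chromosome 8 and starts 2 bases from PRKDC, a kinase of DNA end joining. PRKDC stood at 19.1 and 17.9 FPKM, a ratio of 0.936 (0.904 to 0.969), beside the 1.93 of MCM4. The higher value of these members was therefore not shared by the gene next to them. AFMID beside TK1 had a ratio of 1.02 (0.885 to 1.19) and UFD1 beside CDC45 one of 1.22 (1.13 to 1.32). In the 1 pair that went the other way, PXMP2 had a log2 difference of 0.54 and POLE 0.51. Their FPKM ratios were 1.76 (1.23 to 2.55) and 1.53 (1.44 to 1.63), so by FPKM ratio PXMP2 was past 1.5-fold. LIPT2 beside POLD3 had the lowest ratio of the neighbours, 0.455 (0.337 to 0.61), and the remaining ones, PRPF38A beside ORC1, ZSWIM9 beside LIG1 and SOCS4 beside WDHD1, had log2 differences of -0.22, -0.25 and 0.01.

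**Figure D5:**
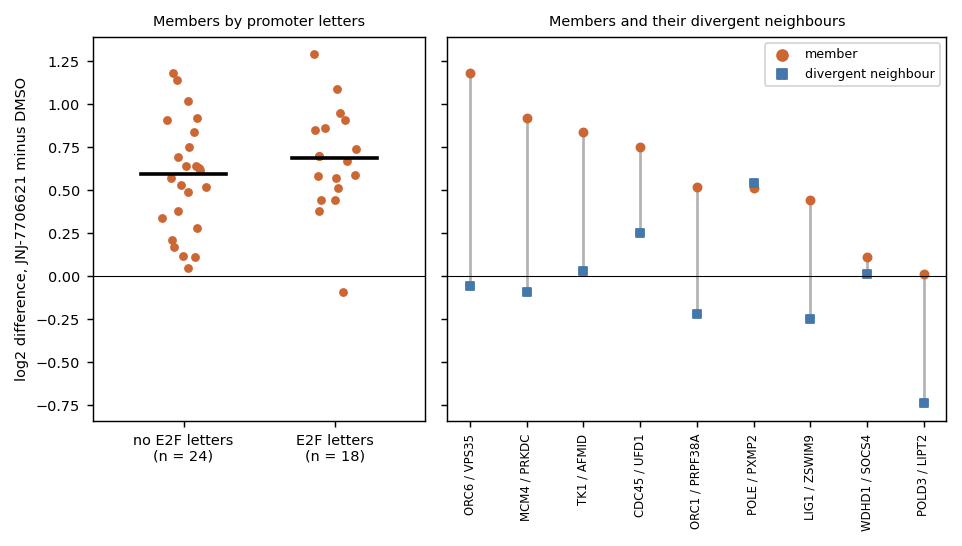
Left, log2 difference of the members over the filter without and with E2F letters in the promoter window, with bars at the medians of 0.60 and 0.69. Right, the log2 difference of 9 members (circles) and of the gene that starts next to them on the other strand (squares), where the square lies below the circle in 8 pairs.

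The label and the libraries were checked for what could bear on these values. Markers of pigment cells were nearly missing in both libraries: of 7, only MITF and PMEL reached a mean FPKM of 1, TYR was at 0 in both libraries (upper limits 0.0425 and 0.0436 FPKM), and their summed level was 4.92 FPKM in DMSO and 6.25 in JNJ-7706621. SOX10, DCT, TYRP1 and MLANA had no more than 0.2 FPKM. The 6 epithelial markers, KRT8, KRT18, KRT19, EPCAM, CDH1 and CLDN4, summed to 1963 and 1981 FPKM. Most of this came from KRT8 (720 and 703 FPKM) and KRT18 (1117 and 1123). EPCAM stood at 55.7 and 59.4 FPKM, CDH1 at 49.8 and 67.8, KRT19 at 19.2 and 26.7 and CLDN4 at 1.32 and 1.65. Whether the cells match the SK-MEL-2 label was not tested. Of the 7 fibroblast, 6 leukocyte and 4 endothelial markers, 0 reached a mean FPKM of 1, with sums of 0.258 and 1.25, 0.834 and 1.33, and 0.129 and 0.244 FPKM. COL1A2, CD3E and PTPRC were at 0 in both. The DMSO library held 23377161 reads and the JNJ-7706621 library 22817719.

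Members had shorter exons than most protein-coding genes, at a median of 4135 bases against 5091, and FPKM is per exon length, so the list was also split by it. The 24 shorter members (1403 to 4130 bases) had a median log2 difference of 0.70 and the 25 longer ones (4135 to 16790 bases) one of 0.58. Protein-coding genes in the same length ranges had medians of 0.06 and -0.03. The 8 members with at least 20% of their exonic bases covered by another gene were MCM2, GINS4, POLA2, PRIM1, TIPIN, RRM2, TYMS and CCNE2. Without them 5 of 42 were called 2-fold higher, against 2.39% of all genes, and the median stayed at 0.64.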

How the data were processed

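Total RNA of 2 cultures was sequenced, and groups were taken from the sample labels. The authors deposited FPKM values per gene, as the column names show. The build hg38 and edgeR appear in the submitters' processing notes, with no version. Aligner, counter, annotation and strand setting: not given in the sources used here. Of 4 value columns, the 2 whose names match the labels were used, and 2 with the same group names and the number 2 were not used here, since no label matches them. Whether the 2 cultures differ in more than the compound cannot be told, since 1 library per group was used.

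Reads were recovered as whole numbers from FPKM, exon length and library total. Each total was itself inferred, taking the lowest widely shared product of FPKM and exon length as 1 read. The GENCODE release 29 exon length served for 13 members, and for 37 the nearest length between 0.25 and 4 times the annotated one that gave whole reads within 0.0001 in both libraries; 46 of the 50 lay within 10% of the annotated length. Recovered reads added up to 99.8% of each library total. Ratio intervals are exact 95% Clopper-Pearson intervals given the sum of reads, and a count of 0 allows 3 reads. Without molecular identifiers, reads may be copies of 1 molecule.

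The log2 difference used a pseudocount of 1 and kept genes whose mean FPKM reached 1. No test was run. The members and all lists were chosen with earlier results of these data known. Named genes are all 50 members, the 4 genes of each other list with the largest difference and any other past 2-fold, RB1, CDKN1A, CDK1, CDK2 and MKI67, the markers and the divergent neighbours. One gene that this rule names is not reported here. The calculations were tested on simulated data with Poisson reads and the exon lengths given. The search for the nearest length and the variation between cultures were therefore not tested by it. Alternatives were other pseudocounts (0.1, 0.5), no filter or one of 5 FPKM, rescaling, centring, a correction for exon length, and, added after seeing the data, one for exon length and GC content and leaving out overlapped members. Python 3.11.15, numpy 2.4.6, pandas 2.3.3, scipy 1.17.1 and statsmodels 0.14.6 were used.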

Additional observations from a re-analysis of the deposited data

How the results depend on the processing

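The median log2 difference of the members lay between 0.59 and 0.69 under all alternatives, the former with an exon length and GC correction and the latter with a pseudocount of 0.1. The count of members called 2-fold higher lay between 5 and 9, beside 1.38% to 4.59% of all genes. With a pseudocount of 0.1, E2F2 and GINS1 joined the 7, CCNE1 left them when the exon length trend was taken off, and MCM10 with a filter at 5 FPKM. Over all genes, 316 were called 2-fold higher and 180 lower, against 608 and 409 with a pseudocount of 0.1, 714 and 478 after rescaling, and 145 and 75 with a filter at 5 FPKM. The median of the origin firing and helicase genes was 0.95 with a filter at 5 FPKM. With the exon length trend taken off, 1 gene of G2/M and mitosis was called 2-fold higher in place of 2, and with a pseudocount of 0.1, 1 gene of the other chromatin copying list in place of 0. Upstream of the start alone, 1 member held TTTGAA and 14 held E2F letters. Of 298 member differences recomputed, 291 stayed within the counting interval and 7 moved out of it. With a pseudocount of 0.1 these were GINS4, MCM10 and E2F2, and with the exon length correction POLE. With the exon length and GC correction they were MCM7, TYMS and PCNA, the last from 0.12 to 0.03. The difference of POLD3 was the 1 that changed sign, from 0.01 to -0.01 after rescaling. No paired analysis was possible because 1 library per group matches the labels and was used. The counting intervals of POLA1, POLA2, CDC7, WDHD1, POLD3 and CCNE2 span 1. With 1 library used per group, no interval tells whether a difference exceeds that between cultures treated alike.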

Other observations

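Some genes of the other lists that dividing cells express had few reads, in both libraries. RNASEH2A, a subunit of the enzyme that removes RNA from DNA, had 6 reads in DMSO and 9 in JNJ-7706621. PRC1, a spindle midzone protein, stood at 0.248 and 0.309 FPKM, and NUSAP1, a spindle-associated protein, at 0.178 and 0.0607 FPKM. Other genes cover 30.8% of the exonic bases of RNASEH2A, 58.4% of that of PRC1 and 62.2% of that of NUSAP1. Of the members, POLA2 combined the lowest level with a covered share of 35.1%. Whether reads in overlapped exons were left out in counting was not tested. These genes were chosen after their values were seen.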
